A study of Homo sapiens with 36 samples.

Results

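In 6 of 36 RNA-seq libraries of HepG2-IGF1R-KO cells, transcripts of collagen genes and of many other genes of connective tissue cells were at or near 0. The 12 other libraries of the same 2 treatment groups held these transcripts at levels that ranged widely. Those of type I collagen were among their most abundant. The 6 libraries were chosen by their level of COL1A1, the gene of a chain of type I collagen, at a threshold of 10 counts per 1000000 counts (CPM) of the library total. They are replicates 4 to 6 of the cells given insulin in normal medium and replicates 1 to 3 of the untreated cells in insulin-resistant medium, and are called COL1A1-low here. The 12 others, 6 in each group, are called COL1A1-high. COL1A1 was at 0.784 to 1.70 CPM of the library total in the 6 and ranged from 9747 to 31870 CPM in the others, and no library lay between these ranges.

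All 36 libraries carry the labels of HepG2, a human hepatoma line that keeps many traits of hepatocytes, and of a knockout of IGF1R, the gene of the receptor for insulin-like growth factor 1. The series has 4 groups of 9 libraries, cells in normal or insulin-resistant medium, each untreated or stimulated with insulin. The titles of all 36 libraries give a time of 72 h. In the first group used here, cells in normal medium received 3 nM human insulin for 18 h. In the second, cells were kept for 72 h in a medium with 20 mM glucose, 1 nM insulin and 0.5 mM fatty acids (palmitic, linoleic and oleic acid), and received no further insulin. The labels name no second cell type, and do not say whether the knockout line is 1 clone or whether the replicates came from separate cultures. Whether other cells were grown with the 30 other libraries, or libraries of different cultures were exchanged, cannot be told apart from these files. With no unedited cells in the series, the presence of IGF1R transcripts in all 18 libraries (67 to 120 CPM) does not check the knockout.

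Hepatocytes and hepatoma cells make plasma proteins such as albumin, apolipoproteins and clotting factors under the control of liver transcription factors such as HNF4A. Fibroblasts and related mesenchymal cells make the fibrillar collagens, the enzymes that modify and crosslink them, and matrix glycoproteins, and they carry intermediate filaments of vimentin (VIM). The comparison was set up to ask which transcripts would belong to a second cell population, which the labels do not name. In bulk RNA, fewer cells of a type and less RNA per cell cannot be told apart.

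Because a collagen gene chose the libraries, the differences between the 6 and the 12 are given as a description, with no test. Levels are CPM scaled by edgeR's TMM method, and folds are fitted log2 values, COL1A1-low minus COL1A1-high, with group and batch date as terms. A gene is called lower or higher where the fold was at least 2 and the 2 kinds of library did not overlap in either group. The labels number replicates 1 to 9 in each group, and libraries 1 to 3, 4 to 6 and 7 to 9 resembled one another, with a median correlation of 0.94 within such a triplet and 0.57 between triplets of the same group and kind. The 6 COL1A1-low libraries are therefore 1 triplet in each group, and what else set these triplets apart cannot be told apart from the missing transcripts. COL1A1-low libraries were also shallower, with totals of 26.6 to 66.9 M counts (1 M is 1000000, median 29.8 M) against 56.4 to 112 M (median 70.9 M). Between 14562 and 15836 genes had 10 or more counts in the 6, and between 16762 and 18419 in the 12. One COL1A1-high library, replicate 2 of the insulin-stimulated cells in normal medium, stood apart from its own triplet, with correlations of 0.69. Levels of some genes differed widely between the COL1A1-high triplets of a group, so a median over its 6 libraries can lie where no library does.

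The other markers given for a second population separated the libraries in the same way. COL1A2, the partner chain of type I collagen, was at 0.0137, 0.0252 and 0 CPM in the COL1A1-low libraries given insulin and at 0 in the 3 untreated ones. In the COL1A1-high libraries it was at 6927 to 15682 CPM (median 14415) with insulin and at 9509 to 19782 CPM (median 12505) untreated. These levels rest on 2 counts in the 6 libraries, which give a ratio of 1593560 with a 95% counting interval of 441142 to 13158500. VIM was at 0, 0.0755 and 0 CPM with insulin and at 0, 0.0326 and 0 CPM untreated in the COL1A1-low libraries. In the COL1A1-high libraries VIM was at 1484 to 3548 CPM (median 3028) and at 1927 to 2761 CPM (median 2132). COL3A1, the chain of type III collagen, was at 0.0137, 0.101 and 0 CPM with insulin and at 0.0305, 0.0326 and 0.119 CPM untreated, against 664 to 3370 CPM (median 1901) and 2321 to 4671 CPM (median 2929). The groups did not overlap for any of these markers, and the COL1A1-low libraries held at most a few reads of each.

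IRS2, an adaptor of the insulin receptor, had the pattern of the matrix genes. It was at 0, 0 and 0.0879 CPM in the COL1A1-low libraries with insulin and at 0.0609, 0 and 0.0893 CPM in the untreated ones. In the COL1A1-high libraries it was at 13 to 50.8 CPM (median 36.5) and at 30.6 to 41.8 CPM (median 33.2). The 8 IRS2 counts in the 6 libraries give a ratio of 1043 (95% counting interval 529 to 2416), and the groups did not overlap.

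**Figure D1:**
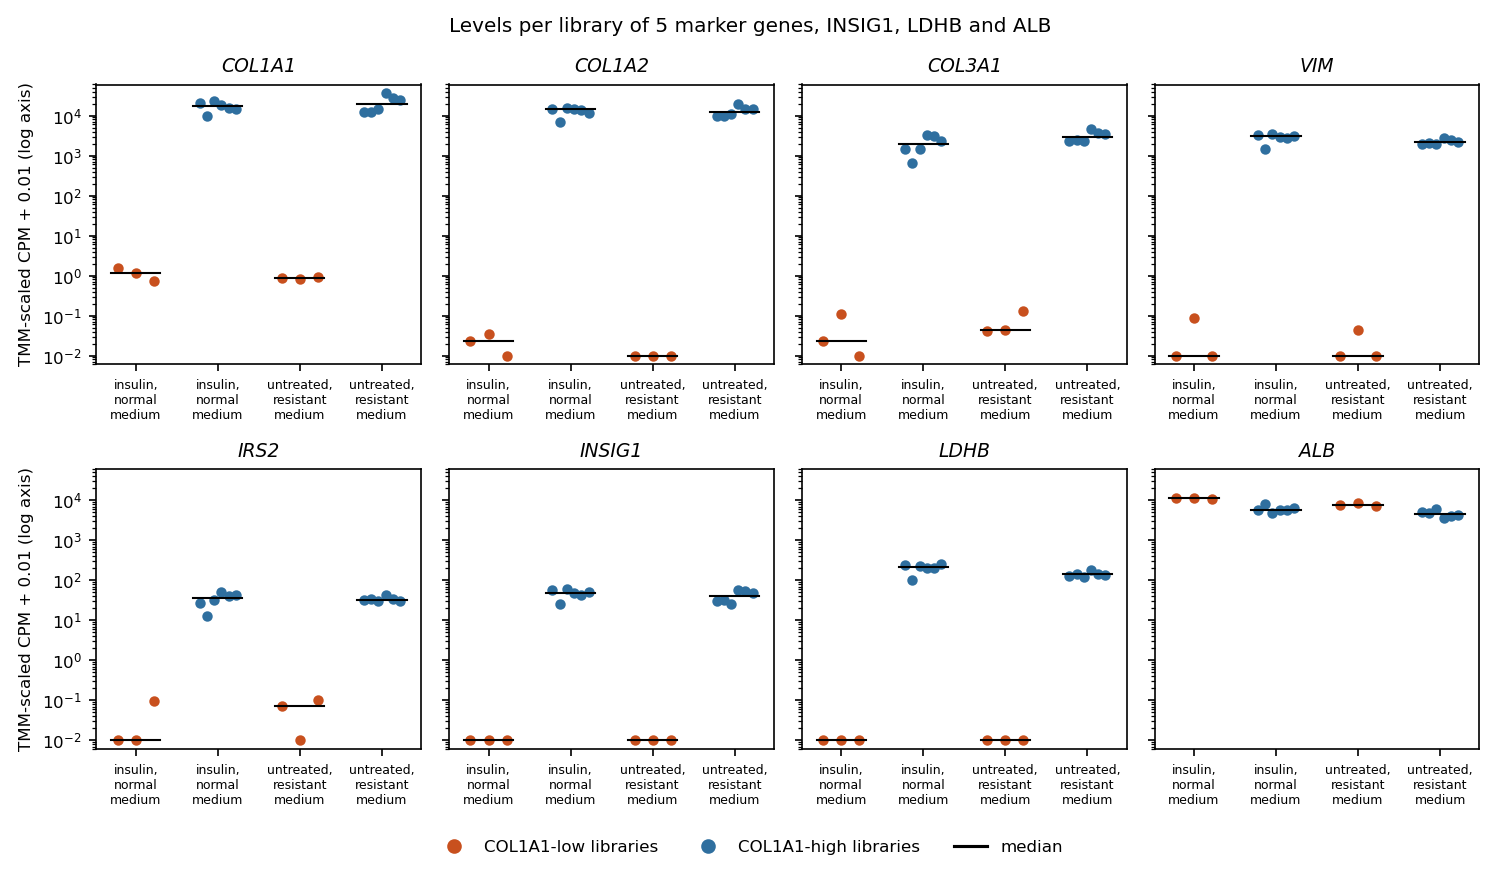
Levels of COL1A1, COL1A2, COL3A1, VIM, IRS2, INSIG1, LDHB and ALB in each of the 18 libraries, as TMM-scaled CPM with 0.01 added so that 0 can be drawn on the log axis. Points are libraries (3 COL1A1-low and 6 COL1A1-high per group) and bars are medians. All genes except ALB sit at or near 0 in the COL1A1-low libraries, and ALB is present in every library.

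Over 18488 genes tested, 2985 were called lower in the COL1A1-low libraries (16.1%) and 66 higher (0.357%). Counts of list members called, given below, stand beside these shares. Of the lower genes, 1192 were at least 64-fold lower (6.45% of all tested), and 535 of these had no count in any of the 6 libraries. Genes with no count in the 6 passed the expression filter only through the COL1A1-high libraries, so they could not come out higher in the 6. Of the 1170 genes of the 64-fold class with an annotated type, 84.8% were protein coding, against 81.5% of all genes tested. The median log2 fold of all genes was -0.04. The balance of calls depended on the scaling: with library totals alone 2586 genes were lower and 1145 higher, and with scaling to the liver genes 5778 were lower and 1 higher. The class was much the same in either group: 1269 genes were at least 64-fold lower without overlap in the insulin-stimulated cells alone and 1214 in the untreated cells alone. The 1027 genes in both are 80.9% of the first list and 84.6% of the second.

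The collagen chains carried the widest difference. Of 27 chains 21 were lower, 16 of them at least 64-fold, and the median log2 fold of the list was -10.30, or -9.92 with genes at 0 set to the bound that 3 counts over the 6 libraries allow. The lower chains include the fibrillar types I, III, V and XI, the beaded-filament chains of type VI and the basement membrane chains COL4A1 and COL4A2. COL4A1 was at 0.178, 0.176 and 0.0586 CPM and at 0.183, 0.0652 and 0.268 CPM in the COL1A1-low libraries, against 313 to 2086 CPM (median 730) and 327 to 2444 CPM (median 1085). Other chains kept clear levels in the COL1A1-low libraries. COL18A1, the precursor of endostatin, was at 293, 204 and 216 CPM with insulin and at 320, 322 and 312 CPM untreated, against 284 to 833 CPM (median 500) and 430 to 578 CPM (median 505), and overlapped with insulin. COL27A1, COL2A1, COL4A5 and COL9A2 had log2 folds of 0.68, 0.72, 0.74 and 0.85, and COL21A1 was not called either. Between these ends, COL6A1, COL7A1 and COL16A1 were lower with log2 folds of -4.54, -2.96 and -2.74 and their lowest levels among the 6 libraries were 38.6, 22.6 and 30.3 CPM.

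Genes that modify collagen ranged from nearly absent in the 6 libraries to levels above those of the 12. Of 24 members 19 were lower and 7 of them at least 64-fold, with a median of -2.13. MRC2, an endocytic collagen receptor, had a log2 fold of -15.98 and 2 counts in the 6 libraries, and the hydroxylase genes P4HA3 and P3H2 had 4 and 3. LOX, which crosslinks collagen, was at 21.7, 28 and 22.5 CPM with insulin and at 12.8, 19.3 and 19.3 CPM untreated in the COL1A1-low libraries, against 438 to 1044 CPM (median 912) and 517 to 1564 CPM (median 1013). SERPINH1, the collagen chaperone HSP47, was at 153, 190 and 151 CPM and at 169, 168 and 167 CPM, against 450 to 829.2 CPM (median 742) and 616 to 1234 CPM (median 801). Both genes were lower without overlap, yet both kept clear expression in the COL1A1-low libraries. P4HB, the protein disulfide isomerase that also serves in prolyl hydroxylase, had a log2 fold of 0.05.

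Of 40 matrix glycoproteins and proteoglycans 36 were lower, with a median log2 fold of -7.17 (-6.83 with genes at 0 at their bound). The adhesion protein tenascin C (TNC), decorin (DCN) and periostin (POSTN) had no count in any COL1A1-low library. TNC was at 98.7 to 620 CPM (median 224) and at 85.5 to 980 CPM (median 432) in the COL1A1-high libraries, at least 32310-fold higher. POSTN was at 96.2 to 226 CPM (median 219) and at 117 to 516 CPM (median 292), at least 20398-fold higher. THBS1 (thrombospondin 1) was at 329, 272 and 334 CPM and at 274, 294 and 285 CPM in the COL1A1-low libraries, against 4052 to 9421 CPM (median 7338) and 4386 to 8437 CPM (median 6029). FN1, fibronectin, which liver cells also secrete, was at 9396, 11925 and 7824 CPM and at 7240, 7898 and 8347 CPM. In the COL1A1-high libraries it was at 13471 to 16902 CPM (median 15265) and at 11735 to 43033 CPM (median 25156), with a log2 fold of -1.15 ± 0.28 (SE). Untreated, the upper values came from replicates 7 to 9, with 2085400 to 3029090 FN1 counts against 1058270 to 1296820 in replicates 4 to 6. FN1 thus stayed among the most abundant transcripts without the collagens, and NID1, LAMB1, VCAN and OGN were not called.

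Genes that mark mesenchymal cells were lower in 28 of 30 cases tested, with a median log2 fold of -9.35 (-8.34 with genes at 0 at their bound). FAP, a fibroblast surface protease, and TWIST1, a transcription factor of mesenchyme, had no count in the COL1A1-low libraries. THY1, a surface glycoprotein of fibroblasts, had 4 counts there and was at 261 to 619 CPM (median 571) and at 372 to 582 CPM (median 430) in the COL1A1-high libraries. The 2 members not called were the transcription factors SNAI1 and NR2F1. Of 25 contractile and pericyte genes 21 were lower (median -3.54), with ACTA2, smooth muscle actin, at 33.3, 28.8 and 31.2 CPM and at 37.8, 37 and 34.8 CPM against 57.1 to 235 CPM (median 137) and 134 to 832 CPM (median 375). Matrix proteases and their inhibitors were lower in 21 of 25 cases (median -4.11). MMP2, a gelatinase, was at 0.411, 0.352 and 0.234 CPM and at 0.639, 1.01 and 0.774 CPM, against 467 to 1099 CPM (median 1019) and 705 to 2054 CPM (median 1180). Growth factors and cytokines of stromal cells were lower in 27 of 43 cases (median -7.03, or -5.99 with genes at 0 at their bound). WNT5A, a secreted Wnt ligand, had no count in the 6 libraries and was at 184 to 1221 CPM (median 737) and at 591 to 1072 CPM (median 861), at least 63742-fold higher. CXCL8, EREG, JAG1 and GDF15, which are on the same list, were not lower, with log2 folds of 0.75, 0.92, 0.79 and 0.75.

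HOX genes are transcription factors that record the position of a cell along the body axis. Of 28 tested, 19 were lower (median -6.72, or -5.88 with genes at 0 at their bound). In the HOXA cluster the 5 genes HOXA7, HOXA9, HOXA10, HOXA11 and HOXA13 were lower, and none of HOXA2, HOXA3, HOXA4, HOXA5 and HOXA6 was, a grouping chosen after the values were seen. Outside the HOXA cluster, HOXB2, HOXC4 and HOXC6 were lower with no count in the 6 libraries, and HOXD1 had a log2 fold of 0.88. HOXA13 was at 0.0137, 0.151 and 0.0586 CPM and at 0.0914, 0.163 and 0.149 CPM in the COL1A1-low libraries, against 6.61 to 42.3 CPM (median 26.6) and 17.1 to 29.5 CPM (median 21.5). HOXA3 was at 8.45, 5.99 and 8.11 CPM and at 15.7, 14.5 and 14.4 CPM, against 3.32 to 5.8 CPM (median 4.07) and 6.99 to 13.1 CPM (median 9.47). The 2 genes lay on opposite sides, without overlap in either group.

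Markers of other cell types that a liver or tumour sample could hold were mixed, and the counts below stand beside 16.1% lower among all genes tested. Of 8 endothelial genes tested 2 were lower, TEK and ROBO4, and the list summed to 37.8 to 49.6 CPM of the library total in the COL1A1-low libraries and 16 to 41.3 CPM in the COL1A1-high ones. Of 12 leukocyte genes 1 was lower, the pan-leukocyte gene PTPRC, which stood at no more than 0.245 CPM in the COL1A1-high libraries and at 0 in the 6. Of 18 leukocyte genes listed, 3 had no count in any of the 18 libraries. The list summed to 735 to 2457 CPM of the library total in the COL1A1-low libraries and 347 to 1552 CPM in the COL1A1-high ones, most of it LYZ, lysozyme, with a median of 1291 CPM in the 6 and 734 CPM in the 12. Of 13 hepatic stellate genes 6 were lower, 3 of them at least 64-fold, and none was called higher. ECM1 and ALCAM, both lower, had log2 folds of -5.79 and -1.04, while RELN, the most abundant of the list, had 0.88. Of 12 cholangiocyte genes 3 were lower, the keratin KRT7, MUC1 and AQP1, and MUC1 and AQP1 reached at most 8.88 and 6.65 CPM in the 12 libraries. KRT7 was at 0.0274, 0.0503 and 0.0586 CPM and at 0.305, 0.196 and 0.387 CPM, against 97.2 to 276 CPM (median 123) and 68.4 to 619 CPM (median 256.1). Adipocyte, bone and cartilage, neural and mesothelial lists had 2 of 4, 3 of 7, 1 of 5 and 2 of 6 tested members lower, and skeletal muscle 0 of 5. The median log2 folds of the lists were -3.53 for adipocyte (-2.24 with genes at 0 at their bound) and -1.31 for mesothelial genes, 0.38 for stellate, 0.46 for cholangiocyte, 0.52 for leukocyte, 0.60 for endothelial, 0.64 for skeletal muscle, 0.72 for bone and cartilage and 0.74 for neural and glial genes. The stellate median turned below 0 in 11 of 30 other settings, to -0.91 within the 22 April batch. What part cells of these types had in the results was not tested.

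**Figure D2:**
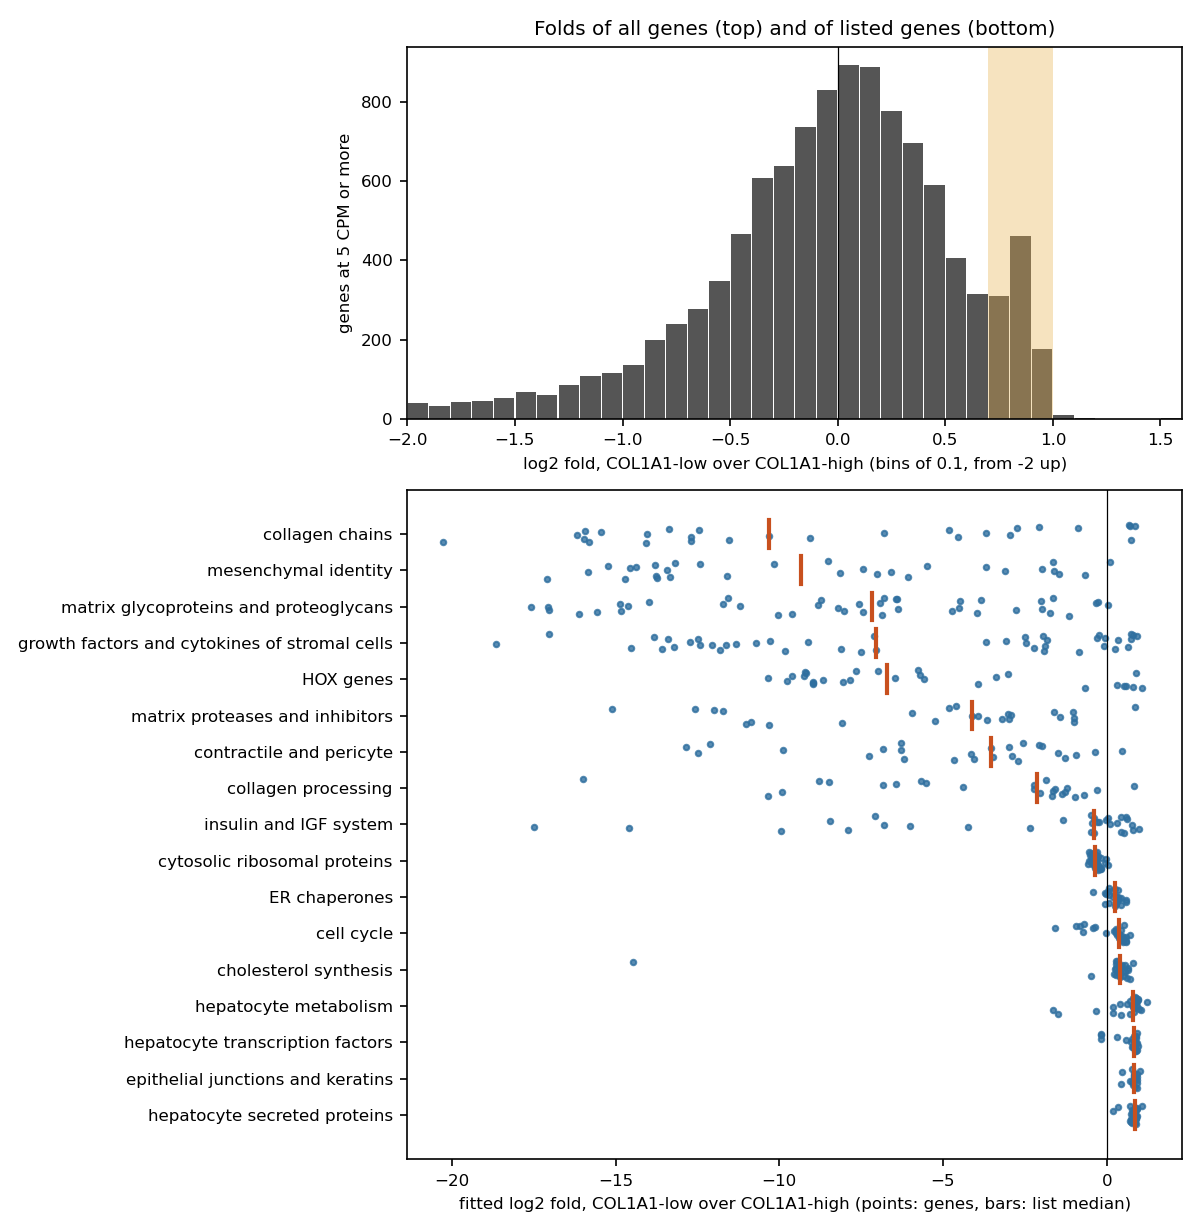
Log2 folds, COL1A1-low over COL1A1-high. Top: number of genes per bin of 0.1, for genes at 5 CPM or more in either kind of library, from -2 up, with the shaded range from 0.7 to 1 holding 948 genes. Bottom: fitted folds of the genes of 17 lists (points) and the list medians (bars), with collagen and mesenchymal lists far to the left and the liver lists together near 0.85.

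At the other end of the distribution, genes of the liver lay close together. Among 11770 genes at 5 CPM or more, the folds had a main peak near 0 and a second peak between 0.7 and 1 with 948 genes, and only 17 genes lay above 1. Since few genes reached 2-fold, genes at least 1.5-fold higher without overlap were also counted, which gave 1209 (6.54% of those tested), a choice made after seeing the data. Of 32 secreted liver proteins 23 met it, with a median log2 fold of 0.85 and none lower. ALB, albumin, was at 11791, 11460 and 10663 CPM with insulin and at 7875, 8374 and 7439 CPM untreated in the COL1A1-low libraries, against 4772 to 8186 CPM (median 5785) and 3611 to 6083 CPM (median 4595). HNF4A was at 418, 355 and 343 CPM and at 296, 300 and 315 CPM, against 160 to 279 CPM (median 186) and 132 to 233 CPM (median 194). The groups did not overlap for either gene. Scaled to the liver genes themselves, the median of the secreted proteins was 0.13, and with library totals it was 1.10. Liver transcription factors met the 1.5-fold rule in 15 of 24 cases (median 0.83) and genes of epithelial junctions and keratins in 11 of 18 (median 0.84). ER chaperones (median 0.25), cholesterol synthesis genes (0.40) and cell cycle genes (0.36) lay between the peaks, and 34 ribosomal protein genes had a median of -0.34. With scaling to the liver genes, which moved the median of all genes to -0.76, the first 3 of these lists had medians of -0.48, -0.31 and -0.36.

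A list of 27 key genes of the study, chosen with results of these data known, had a median log2 fold of 0.74. LEAP2, the liver peptide in the title, was at 1.76, 1.03 and 1.41 CPM and at 1.77, 2.18 and 1.55 CPM in the COL1A1-low libraries, against 0.676 to 1.3 CPM (median 0.816) and 0.824 to 1.43 CPM (median 1.12). Its log2 fold was 0.70 ± 0.16 (SE), with overlap in the insulin-stimulated cells, and it was lost when scaled to the liver genes. ANGPTL8, an inhibitor of lipoprotein lipase, had 0.81, EREG, an EGF receptor ligand, 0.92, and FASN, the fatty acid synthase, 0.74. Over 30 other settings the lowest log2 folds of ANGPTL8, EREG and FASN were 0.08, 0.18 and 0.01. The lowest median of the list was 0.02. Of these 27 genes 2 were lower, IRS2 and FN1, and 8 met the 1.5-fold rule, beside 16.1% and 6.54% of all genes tested.

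The 12 COL1A1-high libraries held 5.52% to 14.9% of their counts (median 10.6%) in the 1192 genes of the 64-fold class, and the COL1A1-low libraries 0.0156% to 0.0257%. The class was chosen in these same libraries, so a wide gap between the 2 kinds follows from that choice. In the 18 libraries of the 2 groups that did not choose the class, the share was 5.32% to 14.2% (median 11.1%). Collagen chains alone took 2.67% to 7.68% of counts in the 12 libraries and 0.0612% to 0.0892% in the 6. Secreted liver protein genes took 4.87% to 5.15% of counts in the COL1A1-low libraries and 1.76% to 3.32% in the COL1A1-high ones. Their number of counts did not differ in this way: it was 1.36 to 3.44 M in the 6 libraries and 1.26 to 3.72 M in the 12. In the batch the labels date 22 April, with 3 and 6 libraries, totals were 28.3 to 38.1 M against 62.2 to 81.1 M, and liver protein counts 1.39 to 1.91 M against 1.26 to 1.53 M. On 11 April, with 2 and 2, totals were 26.6 to 30.6 M against 56.4 to 60.9 M, and liver protein counts 1.36 to 1.49 M against 1.38 to 1.40 M. On 24 May a single COL1A1-low library had 3.44 M of these counts in a total of 66.9 M, against 2.48 to 3.72 M in totals of 81.2 to 112 M. Library totals thus differed between the 2 kinds of library within every batch date, and the part this played in the folds was not tested.

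**Figure D3:**
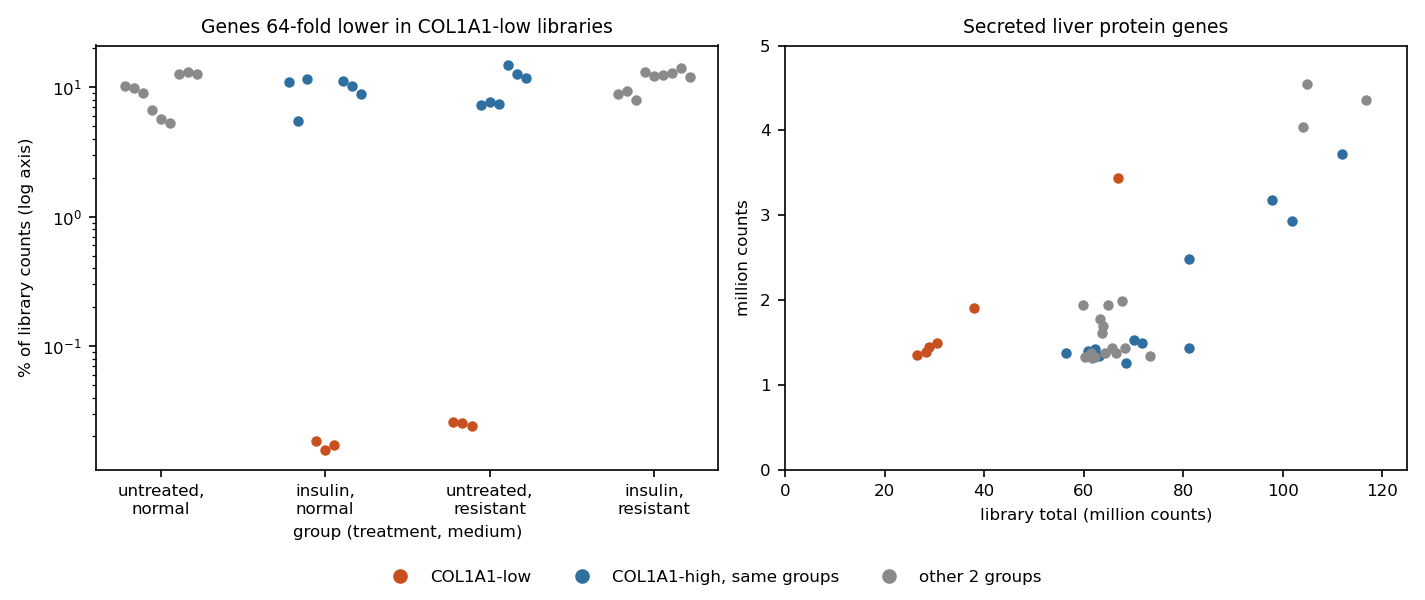
Left: percent of library counts from the 1192 genes at least 64-fold lower in COL1A1-low libraries, in each of the 36 libraries by group, on a log axis. Right: counts, in M, of 32 secreted liver protein genes against the library total. The 6 COL1A1-low libraries lie below 0.03% on the left, a gap that follows from how the genes were chosen. On the right they hold as many liver protein counts as libraries with larger totals.

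The insulin and IGF system was divided as well. Most IGF-binding proteins and some signalling genes were called lower, while the receptors INSR and IGF1R and the secreted IGFBP1 and IGF2 were not. Of 30 genes tested 11 were lower, 8 of them at least 64-fold, and none was called higher. Over all genes tested the shares were 16.1%, 6.45% and 0.357%. IGF-binding proteins hold IGFs in the tissue and plasma. IGFBP5 was at 0, 0 and 0.0293 CPM and at 0, 0.0326 and 0 CPM in the COL1A1-low libraries, against 515 to 3506 CPM (median 1745) and 582 to 2318 CPM (median 1353). IGFBP3 was at 0.0686, 0.226 and 0.205 CPM and at 0, 0.0652 and 0.0298 CPM, against 1013 to 2708 CPM (median 1156) and 499 to 7511 CPM (median 3231). Untreated replicates 4 to 6 held 494 to 603 CPM of the library total, and replicates 7 to 9 held 5339 to 6516 CPM. IGFBP2, IGFBP4, IGFBP6 and IGFBP7 were lower as well, while IGFBP1, which liver cells secrete, had a log2 fold of 0.97 ± 0.20 (SE). IGFBP1 was at 858, 1512 and 853 CPM and at 209, 306 and 292 CPM, against 343 to 1057 CPM (median 487) and 94 to 246 CPM (median 171), with overlap in both groups.

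Of the 2 ligands, IGF1 was lower and IGF2 was not. IGF1 was at 0.0274, 0.0252 and 0 CPM and at 0.0609, 0.13 and 0.0595 CPM, against 0.0818 to 3.42 CPM (median 1.43) and 1.28 to 34 CPM (median 14.9). Untreated replicates 4 to 6 held 1.27 to 2.17 CPM of the library total, and replicates 7 to 9 held 25.5 to 29.5 CPM. IGF2 was at 1363, 1240 and 885 CPM and at 1036, 1399 and 1201 CPM, against 561 to 1097 CPM (median 663) and 524 to 1265 CPM (median 745), a log2 fold of 0.79. PAPPA, the protease that frees IGFs from IGFBP4, had a log2 fold of -7.08. Downstream of the receptors, the kinases AKT1 and AKT2 had log2 folds of -0.23 and -0.31. INSR, the insulin receptor, was at 66.2, 74.9 and 62.4 CPM and at 60, 63.4 and 67.8 CPM, against 44.7 to 61.5 CPM (median 47.2) and 38.7 to 54.1 CPM (median 43.3). It was higher without overlap, by 0.52 on the log2 scale, a direction that turned to -0.21 when scaled to the liver genes. IGF1R had a log2 fold of -0.39 ± 0.08 and IRS1, the other main adaptor, -0.50. The COL1A1-low libraries thus held the receptors, IRS1, AKT1 and AKT2 and almost none of IRS2.

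**Figure D4:**
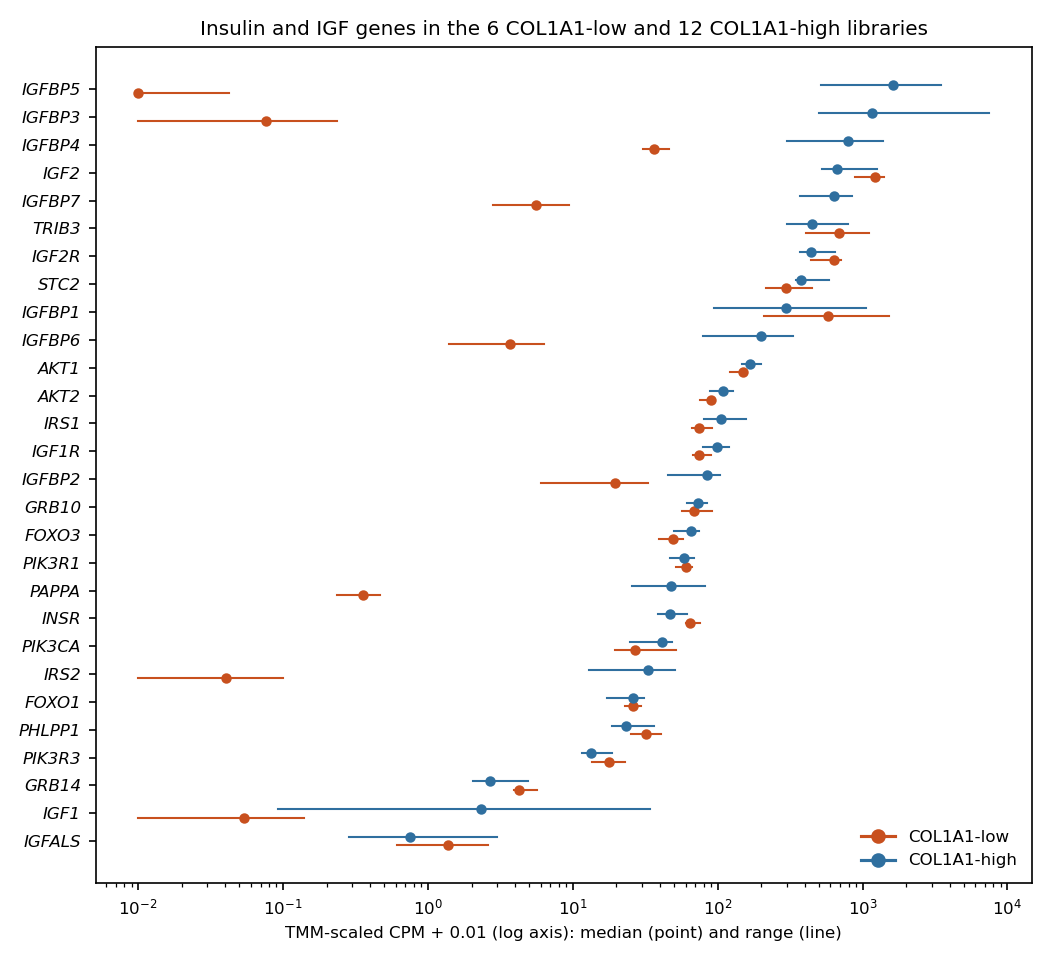
Median (point) and range (line) of 28 genes of the insulin and IGF system in the 6 COL1A1-low and 12 COL1A1-high libraries, as TMM-scaled CPM with 0.01 added, on a log axis, ordered by the median in the COL1A1-high libraries. IGFBP5, IGFBP3, IRS2 and PAPPA lie far apart between the 2 kinds, and the receptors close together.

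Several genes absent from the COL1A1-low libraries belong to metabolism and not to the matrix. INSIG1, which retains the sterol sensor SCAP in the endoplasmic reticulum, had no count in any of the 6 libraries and was at 25.9 to 60.7 CPM (median 49.1) and at 25 to 56.9 CPM (median 40.5) in the COL1A1-high ones, at least 3599-fold higher. It was the only one of 24 cholesterol synthesis genes called lower. ME1, the cytosolic malic enzyme, had no count in the 6 libraries and was at 8.61 to 28.6 CPM (median 22.8) and at 13.3 to 34.6 CPM (median 22.4), at least 1818-fold higher. LDHB, the heart-type subunit of lactate dehydrogenase, had no count in the 6 and was at 104 to 251 CPM (median 219) and at 120 to 183 CPM (median 141), at least 14204-fold higher. LDHA, the muscle-type subunit, was at 654, 615 and 613 CPM and at 628, 668 and 628 CPM, against 1014 to 1493 CPM (median 1278) and 939 to 1931 CPM (median 1348). GSTP1, a glutathione transferase singled out after its values were seen, was at 0, 0.0252 and 0 CPM and at 0.122, 0 and 0.0893 CPM, against 77.6 to 177 CPM (median 155) and 89.2 to 181 CPM (median 112). The pregnancy-specific glycoprotein gene PSG5 and the prostaglandin synthase gene PTGS2 also had no count in the 6. In all, 54 genes at a mean of 20 CPM or more in the 12 libraries had no count in the 6.

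Genes higher in the COL1A1-low libraries were few beyond the second peak, which also held the medians of the bone and cartilage and the neural and glial lists. None of the 66 had a mean of 20 CPM in the 6 libraries, and 8 had a mean of 5 CPM. Of these, SULT1A3 and CDRT4 had the largest log2 folds, 2.50 and 2.29, and were named after their values were seen. SULT1A3, a sulfotransferase, was at 15.2, 20.7 and 13.4 CPM and at 16, 19 and 14.4 CPM, against 1.64 to 3.8 CPM (median 2.09) and 2.41 to 13.9 CPM (median 3.08). SULT1A3 has a near-identical copy in the genome, and how the authors' counting split reads between the copies cannot be checked.

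Promoters were examined as a feature that the choice of libraries did not use. The reference promoter table (RefSeq, build GRCh38.p14) holds an entry for 806 of the 1188 genes of the 64-fold class matched by symbol, 634 of the 947 of the second peak and 27305 genes in all, and the 250 bases before the start were searched on both strands. Promoters of 4 genes at the 2 ends of the distribution are shown, with the motif in capitals. IGFBP5 lies at chr2:216695550-216695799 (minus strand) and carries the letters GGAATG bound by TEAD factors, here read from the opposite strand. POSTN lies at chr13:37598769-37599018 (minus strand) and carries the AP-1 letters TGANTCA. ALB lies at chr4:73404037-73404286 (plus strand) and carries the HNF1 letters GTTAAT. AHSG, the gene of the plasma protein fetuin-A, lies at chr3:186612810-186613059 (plus strand) and carries the HNF4 letters CAAAGTCCA, read from the opposite strand.
IGFBP5: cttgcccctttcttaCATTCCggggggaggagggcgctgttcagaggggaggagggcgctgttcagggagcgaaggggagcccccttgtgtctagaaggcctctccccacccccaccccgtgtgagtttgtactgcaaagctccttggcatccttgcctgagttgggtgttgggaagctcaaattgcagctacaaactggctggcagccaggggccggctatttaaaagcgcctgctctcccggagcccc
POSTN: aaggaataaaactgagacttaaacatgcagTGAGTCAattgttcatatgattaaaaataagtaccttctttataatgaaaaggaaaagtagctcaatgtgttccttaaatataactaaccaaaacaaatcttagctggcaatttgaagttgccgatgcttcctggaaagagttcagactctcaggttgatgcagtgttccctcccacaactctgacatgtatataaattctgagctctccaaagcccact
ALB: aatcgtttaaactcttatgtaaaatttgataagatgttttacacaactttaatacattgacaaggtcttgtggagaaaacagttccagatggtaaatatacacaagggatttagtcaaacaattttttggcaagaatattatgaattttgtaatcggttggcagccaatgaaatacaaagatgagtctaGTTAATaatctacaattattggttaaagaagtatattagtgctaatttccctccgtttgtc
AHSG: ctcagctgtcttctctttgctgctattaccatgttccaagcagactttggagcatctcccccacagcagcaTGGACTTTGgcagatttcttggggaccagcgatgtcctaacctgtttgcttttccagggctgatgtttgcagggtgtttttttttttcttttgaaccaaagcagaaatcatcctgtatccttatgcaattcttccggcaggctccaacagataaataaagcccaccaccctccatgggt

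The share of promoters with each motif is a description of letters, not of binding. GTTAAT was in 8.04% of second-peak promoters, 4.96% of those of the 64-fold class, 3.66% of those of all genes tested and 6.22% of all promoters in the table. CAAAGTCCA was in 7 of 634 second-peak promoters (1.10%), in none of the 806 of the 64-fold class, in 0.264% of genes tested and in 0.293% of all. TGANTCA was in 7.44% of the 64-fold class, 4.73% of the second peak, 4.36% of genes tested and 6.60% of all. GGAATG was in 11.5% of the 64-fold class, 10.7% of the second peak, 9.78% of genes tested and 11.9% of all. The TATA box letters TATAAA were in 9.80%, 9.31%, 6.12% and 11.1% of the same sets. The CArG box, which serum response factor binds, was in 1.86%, 0.789%, 1.02% and 1.14%. Both classes were above the genes tested for every motif other than the HNF4 and CArG motifs, and both were below all promoters for the TEAD and TATA letters. Of the 30 promoters found for the 66 genes called higher, 5 held GTTAAT and none CAAAGTCCA. Genes at 5 CPM or more within 0.5 of 0 had lower shares than both classes for every motif except CAAAGTCCA, for which the 64-fold class had none. Median GC content was 62.0% in the 64-fold class, 64% in the second peak, 65.2% near 0, 64.4% in genes tested and 58.0% in all promoters.

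The libraries allowed 1 test, whether the difference between COL1A1-low and COL1A1-high libraries was itself different between the groups. A difference of folds above 0 means that the low-minus-high fold was larger in the untreated cells in insulin-resistant medium than in the insulin-stimulated cells in normal medium. With the quasi-likelihood test of edgeR and a limit of 0.05 on the adjusted p, 113 genes lay above 0 (0.611%) and 115 below 0 (0.622%). The p-values measure the spread between libraries, and each group has 1 COL1A1-low triplet. With each triplet summed to 1 sample, edgeR called 0 genes on either side. Of 21339 genes tested in that fit, 518 had an unadjusted p under 0.05, fewer than the 1 in 20 that chance gives. Without replicate 2 of the insulin-stimulated cells the counts were 926 and 534, and without replicate 2 of the untreated cells 21 and 24. Of 27 collagen chains only COL16A1 was among the 113 and 115 genes, and none of 32 liver secreted proteins or 24 liver transcription factors. At the shares over all genes, lists this short would hold few or no such genes. Many collagen chains also had few or no counts in the 6 libraries, which limits the test for them.

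Among the 10 genes below 0 with the smallest p was DDIT3 (CHOP), a transcription factor of the response to unfolded proteins. It was at 156, 140 and 155 CPM in the COL1A1-low insulin-stimulated libraries and at 84 to 126 CPM (median 91.4) in the COL1A1-high ones. In the untreated cells in insulin-resistant medium it was at 21.3, 21.5 and 20.2 CPM and at 27 to 39.6 CPM (median 34.2). On the TMM scale DDIT3 was thus higher in COL1A1-low libraries in the first group and lower in the second, without overlap in either. Its difference of log2 folds was -1.31 ± 0.19 (SE, edgeR adjusted p = 0.00478). Over 30 other settings this difference stayed below 0 (-2.18 to -1.11), while the fold over both groups ran from -0.69 to 0.35. HERPUD1, a membrane protein of endoplasmic reticulum degradation, was at 446, 462 and 479 CPM against 279 to 367 CPM (median 304), and at 95.7, 97 and 86.7 CPM against 123 to 188 CPM (median 147), a difference of -1.31 ± 0.19 (edgeR adjusted p = 0.0039). Over the other settings the HERPUD1 fold over both groups ran from -0.77 to 0.27. The directions of DDIT3 and HERPUD1 within each group were not tested under other scalings. SARS1, a seryl-tRNA synthetase, was at 335, 325 and 343 CPM against 360 to 397 CPM (median 375), and at 170, 175 and 170 CPM against 278 to 427 CPM (median 328), a difference of -0.95 ± 0.14 (edgeR adjusted p = 0.00478). SARS1 was lower in COL1A1-low libraries in both groups, and by more in the untreated cells. ADM2, a secreted peptide of the adrenomedullin family, and SLC6A9, a glycine transporter, differed by -1.21 ± 0.18 and -1.02 ± 0.16 (edgeR adjusted p = 0.00478 and 0.00588).

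Among the 10 genes above 0 with the smallest p were 3 of secreted proteins that were lower in COL1A1-low libraries. C1S, a protease of the complement system, was at 9.89, 6.19 and 8.38 CPM in the COL1A1-low insulin-stimulated libraries and at 84.8, 79.9 and 65.9 CPM in the COL1A1-low untreated ones, against 75.6 to 260 CPM (median 204) and 159 to 215 CPM (median 195). Its difference of log2 folds was 3.19 ± 0.50 (edgeR adjusted p = 0.00857). DKK1, an inhibitor of Wnt signalling, was at 35.8, 37 and 34.1 CPM and at 105, 96.5 and 88.1 CPM, against 229 to 481 CPM (median 442) and 190 to 322 CPM (median 259), a difference of 2.17 ± 0.35 (edgeR adjusted p = 0.00926). IGFBP2 was at 6.95, 5.99 and 8.76 CPM and at 30.1, 30.7 and 32.9 CPM, against 45.3 to 92 CPM (median 85.7) and 59.5 to 103 CPM (median 78.2), a difference of 2.08 ± 0.35 (edgeR adjusted p = 0.0116). In all 3 genes the COL1A1-low libraries lay below the COL1A1-high ones in both groups, and by more with insulin in normal medium. IL1R1, the interleukin-1 receptor, was at 12.7, 13.6 and 13.2 CPM against 25.3 to 49.9 CPM (median 42.4) with insulin, and at 48.9, 46.4 and 42.8 CPM against 42.8 to 57.2 CPM (median 47) untreated, where the 2 kinds overlapped. Without replicate 2 of the untreated cells the edgeR adjusted p was 0.0622 for IL1R1 and 0.0637 for IGFBP2, and without replicate 5 of the insulin-stimulated cells it was 0.0538 for IGFBP2. TUBA1A, an alpha-tubulin, and HSPA1A, an inducible HSP70 chaperone, differed by 1.31 ± 0.15 and 1.13 ± 0.15 (edgeR adjusted p = 0.00129 and 0.00319). HSPA1A has a near-identical paralog, so its split of reads is uncertain.

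**Figure D5:**
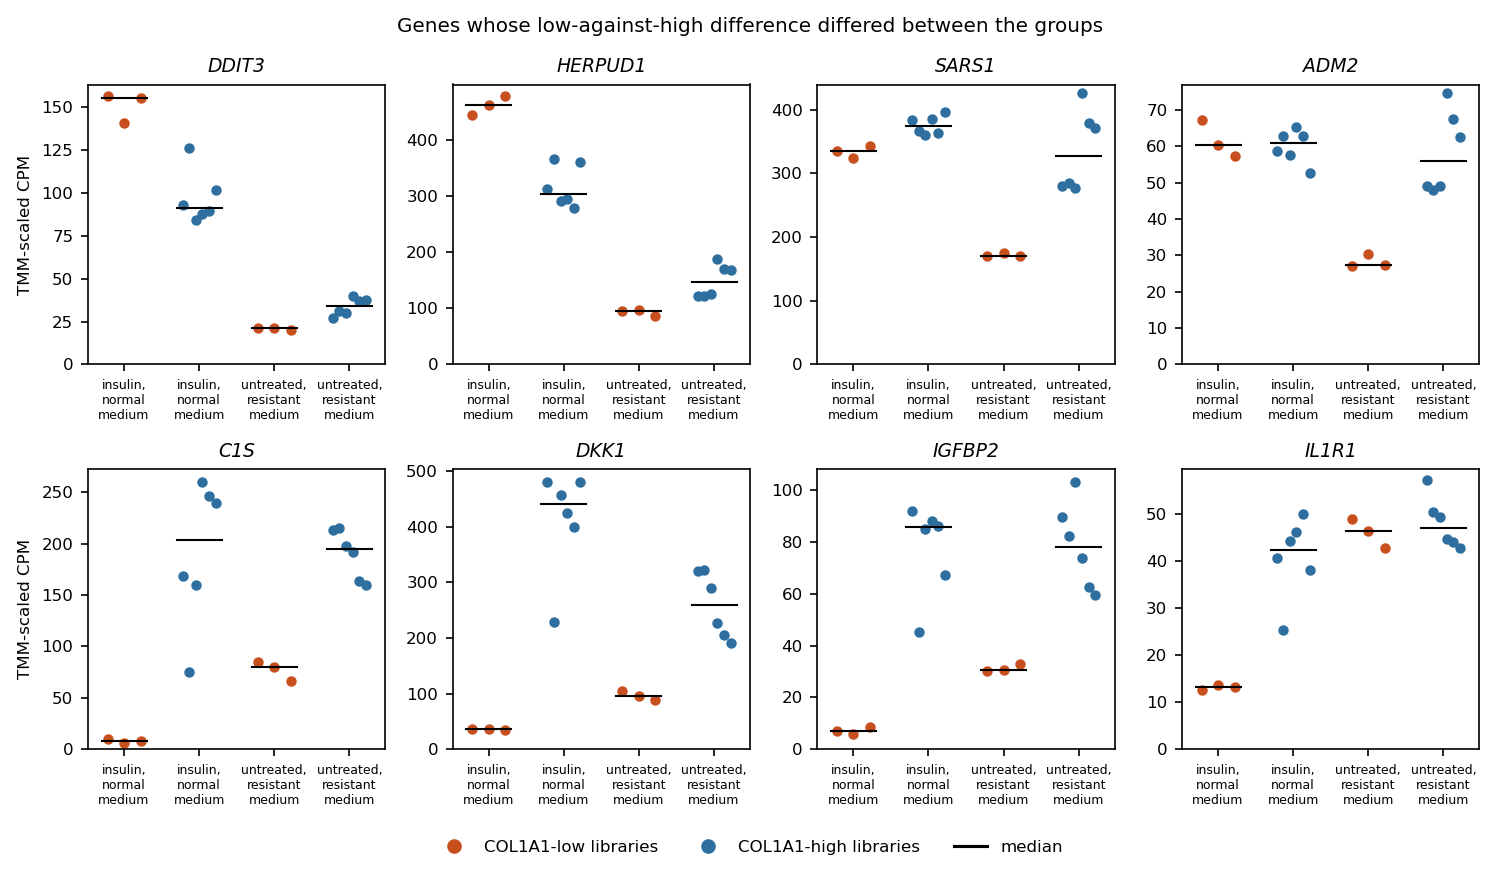
TMM-scaled CPM per library of 4 genes with a difference of folds below 0 (DDIT3, HERPUD1, SARS1, ADM2) and 4 above 0 (C1S, DKK1, IGFBP2, IL1R1), for COL1A1-low and COL1A1-high libraries of each group, with medians as bars and linear axes from 0. On the TMM scale, DDIT3 and HERPUD1 are higher in COL1A1-low libraries with insulin in normal medium and lower in the other group.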

How the data were processed

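Poly-A RNA of 36 libraries was sequenced. The deposited table holds expected counts per gene, which the authors made with STAR and Salmon on GRCh37, per the submitters' processing notes (no versions are recorded there). Of its values 15.5% were not whole, and all were rounded. Symbols came from a GRCh38 annotation for 51994 of 57771 gene IDs. No column was left out of the table. Libraries were taken as COL1A1-low below 10 CPM of the library total within 2 of the 4 groups, and edgeR 4.0.16 (R 4.3.3) was fitted with TMM scaling, filterByExpr and terms for group and batch date, leaving 18488 genes. The contrast of COL1A1-low and COL1A1-high libraries was used by the choice of libraries and has no test. The test of the difference between groups was edgeR's quasi-likelihood test with Benjamini-Hochberg adjustment. Tested on simulated data for that difference (18266 genes), it called 10.4% of 1.5-fold, 46.3% of 2-fold and 83.3% of 4-fold changes and 3 unchanged genes. The simulated libraries were drawn independently, without triplets. These rates therefore do not tell how many false calls the real libraries, which come in triplets, would give. Intervals of ratios are 95% counting intervals, and bounds use a floor of 3 counts over the 6 libraries; both cover counting error only.

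Members and lists (681 of 685 list entries were in the table) were chosen with earlier results of these data known. Genes named were the markers, the key genes, up to 5 per list with the largest called fold at 5 CPM or more, the 15 largest folds on each side at 20 CPM or more, and the 10 smallest p on each side of the difference between groups. Other genes named were chosen after their values were seen. Same-numbered replicates were not paired by the data: of 9 correlations of their deviations 1 was above 0.1. No 2 libraries of a group and kind agreed within counting noise (72 pairs, lowest chi-square per gene 4.20). Alternatives were other scalings, filters, fold limits, tools, batches, triplets and libraries left out. Some genes that meet the naming rule are not reported here.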

Additional observations from a re-analysis of the deposited data

Results flagged for a closer look

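Among the 6 COL1A1-high libraries given insulin in normal medium, replicate 2 lay far below the others for VIM (1484 CPM), LDHB (104 CPM) and POSTN (96.2 CPM). The same library had a total of 112 M counts, far above the others, and is the only one of the 6 dated 24 May. In the untreated cells in insulin-resistant medium the highest COL1A1-high library for IRS2, at 41.8 CPM, stood apart from the rest. Over 52 sets of libraries examined, 5 such values were found, and chance gives about 1 in 20 for independent sets. The sets share libraries and are not independent. Of the 5 values, 4 came from replicate 2 given insulin, so they are not separate events.

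The difference between COL1A1-low and COL1A1-high libraries was itself different between the groups for 19 named genes by edgeR's quasi-likelihood test. Differences of log2 folds, untreated in insulin-resistant medium minus insulin-stimulated in normal medium, were above 0 for TUBA1A (1.31), HSPA1A (1.13), FAM114A1 (1.56), C1S (3.19), DKK1 (2.17), IL1R1 (1.47), IGFBP2 (2.08), KDELR3 (1.18) and QSOX1 (1.30). They were below 0 for ARHGEF2 (-1.39), KLF5 (-1.39), HERPUD1 (-1.31), ZNF639 (-0.75), SARS1 (-0.95), RNF41 (-1.07), ADM2 (-1.21), DDIT3 (-1.31), LARP6 (-1.61) and SLC6A9 (-1.02). With triplets summed to 1 sample none of the 19 passed. With 1 library left out, QSOX1 did not pass in 4 cases, KDELR3 in 3, IGFBP2 in 2 and IL1R1 in 1, and the other 15 passed in each.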

How the results depend on the processing

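The number of genes lower in COL1A1-low libraries moved from 2985 by over 1.5 times only when scaled to the liver genes (5778), and it was 2815 to 3140 with any 1 library left out. The number higher, 66, was less stable. It was 121 with DESeq2's size factor method, 117 with averaged TMM factors, 1145 with library totals and 1 with scaling to the liver genes. It was 1209 at a fold of 1.5, 5 at a fold of 4, 381 with overlap allowed, 150 at a mean of 1 CPM or more, 237 with no filter and 43 with no batch term. It was 172 and 339 against the first or second COL1A1-high triplet alone, 585 with triplets summed, 1152 within the 22 April batch and 744 within the 11 April batch. With any 1 library left out it was 62 to 245, over 1.5 times higher without replicate 2, 4, 6 or 8 given insulin or replicate 7 untreated. The cause was not tested.

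The genes whose difference differed between groups, 113 above and 115 below 0 (2584 at an unadjusted p under 0.05), numbered 401 and 385 by DESeq2, 407 above 0 with all 36 libraries, 344 and 75 with library totals, 31 and 37 with scaling to the liver genes, 207 and 44 with no batch term, and 276 and 178 within the 22 April batch. Those below 0 were 370 at a mean of 1 CPM or more and 60 with no filter. With triplets summed both were 0 by edgeR, with 518 of 21339 genes tested at an unadjusted p under 0.05, fewer than chance gives. With any 1 library left out they were 21 to 926 and 24 to 534, and either moved by over 1.5 times without replicate 1, 2, 5, 6 or 8 given insulin or any untreated replicate other than 4 and 6. Within the 11 April batch no residual degrees of freedom were left. With the replicate block the counts were 2567 and 2051, with 2938 genes lower and 97 higher; the libraries share only a number, since 1 of 9 correlated best with its own number.

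The median share of counts in the 64-fold class was recomputed only with other COL1A1 thresholds, other fold limits and 1 library left out. It stayed within the spread of libraries in each of these. It was not recomputed under other scalings, filters or tools, without the batch term, within single batches or with triplets summed. List medians that turned included hepatic stellate (0.38, below 0 in 11 of 30 settings, -0.87 to 0.47 with 1 library left out), cell cycle (0.36, below 0 in 3, lowest -0.36), adipocyte (0.71 within 11 April, 0.40 with triplets summed) and mesothelial genes (0.72 within 11 April, 0.66 and 0.87 against the first or second triplet). Depth limits genes at 0 in the 6 libraries, since 3 counts over them are 0.0123 CPM.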

Other observations

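Further groups of genes were singled out after their values were seen. Their counts stand beside 16.1% called lower and 6.54% at least 1.5-fold higher among all genes tested. Of 21 inflammation genes 3 were lower in COL1A1-low libraries, close to the share over all genes. CXCL8 and ICAM1 of this list had log2 folds of 0.75 and 0.74. Of 25 genes of hepatocyte metabolism ASS1, an enzyme of the urea cycle, was the only one lower (-1.50), and 13 were at least 1.5-fold higher. Of 27 cell cycle genes only the inhibitor CDKN1A was lower (-1.59). The glycolytic enzyme PKM and the cytoskeletal gene ACTB had log2 folds of -1.26 and -1.16.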
